A study of Mus musculus with 16 samples.

Results

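The adult globin genes of mouse bone marrow are described here in RNA sequencing libraries from Nrf2 knockout and wild-type mice. The members were listed by symbol as Hba-a1, Hba-a2, Hbb-bs, Hbb-bt and Ahsp. This rule uses no measured values, but the list was chosen with earlier results of these data known. Of these 5 symbols, 4 were matched to a gene ID among the 57132 genes of the count table. They are Hba-a1 (ENSMUSG00000069919.8), Hba-a2 (ENSMUSG00000069917.8), Hbb-bs (ENSMUSG00000052305.7) and Hbb-bt (ENSMUSG00000073940.4). Ahsp, which encodes a chaperone of free alpha globin, is not analysed here. All 4 globin genes passed the filter on low counts in every comparison.

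Adult haemoglobin is a tetramer of alpha and beta chains, each carrying heme. Hba-a1 and Hba-a2 encode the alpha chain, and Hbb-bs and Hbb-bt encode the beta chains of the haplotype carried by C57BL/6 mice. The genes are switched on late in erythroid maturation, and their transcripts fill the maturing erythroblast and reticulocyte. Erythroid cells match alpha to beta chain output, since free alpha chains and free heme are toxic to the cell. NRF2, encoded by Nfe2l2, is a stress-responsive transcription factor that was named for its likeness to NF-E2, a factor bound to the control region of the beta globin locus.

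The 16 libraries form 8 groups of 2 libraries each. In 4 groups the mice were knockouts (KO, Nrf2-/-), bred from Nrf2+/- parents, with an allele that per the labels leaves a mutant, inactive form. In the other 4 groups the mice were C57BL/6 wild type (WT, spelled CB57BL/6 in the sample labels), males of 8 to 10 weeks. No age is given in the labels for the KO animals. Within each genotype a group received BMX-001 with 5-FU, 5-FU alone, BMX-001 alone or PBS, which the labels call the control. 5-FU (5-fluorouracil) is a chemotherapy drug that blocks thymidylate synthase and so DNA replication, and BMX-001 is named a radioprotector in the series title. 5-FU was given at 20 mg/kg, again on day 7, and marrow was collected on day 10. BMX-001 was given at 0.5 mg/kg from 24 h before 5-FU and then every 3 days. RNA came from unsorted marrow cells of all types. The labels say that marrow was isolated in duplicate but not that the duplicates are different animals, so p-values may measure only technical spread between samples.

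The start of each gene is shown first, because the genes of a pair are compared with each other below, and the pairs differ in how alike their promoters are. Each line gives the 120 bases before the annotated start of transcription, from RefSeq on GRCm38.p6. Capitals mark matches on either strand to the TATA box (TATAA), the CCAAT box (CCAAT), the CACCC box (CACCC), the GATA site (GATAA) and the core of the antioxidant response element (TGACNNNGC). The last is the element that NRF2 binds.
Hba-a1, chr11:32283552-32283671, plus strand: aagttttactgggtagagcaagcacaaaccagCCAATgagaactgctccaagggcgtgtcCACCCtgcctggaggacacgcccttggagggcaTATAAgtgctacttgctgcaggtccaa
Hba-a2, chr11:32296372-32296491, plus strand: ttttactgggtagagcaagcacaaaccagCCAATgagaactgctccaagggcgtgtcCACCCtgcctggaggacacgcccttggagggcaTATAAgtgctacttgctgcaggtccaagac
Hbb-bs, chr7:103827929-103828048, minus strand: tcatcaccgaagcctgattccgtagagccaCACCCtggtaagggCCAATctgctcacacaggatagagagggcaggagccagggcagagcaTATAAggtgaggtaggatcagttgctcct
Hbb-bt, chr7:103813924-103814043, minus strand: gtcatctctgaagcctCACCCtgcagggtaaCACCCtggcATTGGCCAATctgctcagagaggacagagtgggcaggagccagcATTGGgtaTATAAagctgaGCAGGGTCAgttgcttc
No match overlaps another in these lines. The alpha promoters are the same sequence, shifted by 3 bases, with 0 mismatches over 247 aligned bases of the 250 before the start. The beta promoters differ at 122 of 249 positions aligned with a fixed shift and no gaps, an identity of 51%. All 4 genes carry a TATA match whose first base lies 27 to 30 bases before the start, and 1 GATA match in the 250 bases. Hbb-bt has 3 CCAAT and 3 CACCC matches in its 250 bases, against 1 of each in Hbb-bs. Among the 4 genes an antioxidant response element core was found in Hbb-bt alone, on the reverse strand from 17 to 9 bases before the start. Of 32851 promoter windows of 250 bases, 22.8% hold TATAA, 33.8% CCAAT, 52% CACCC, 22.6% GATAA and 10.2% the antioxidant response element core, so such matches are common and are given as descriptions.

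Library totals ran from 27305707 to 39909188 counts. Nfe2l2, the targeted gene, stood at 6.48 to 16.7 CPM (counts per 1e+06 counts) in the 8 KO libraries and 102 to 122 CPM in the 8 WT libraries (log2 fold change -3.74 ± 0.12 SE, adjusted p = 2.68e-09). KO BMX-001 replicate 1 stood apart, at 111.9 on the first principal component against -31 to 7.6 for the others. Replicates of every group differed by more than sampling noise (chi-square per degree of freedom 8.09 to 130). Markers of erythroid cells, neutrophils, monocytes, macrophages, B cells, T and NK cells and megakaryocytes were all detected, which fits the label of whole marrow.

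Globin transcripts were among the most abundant in every library. Hbb-bs had the highest count of any gene in all 16 libraries. Hba-a1 ranked 3 by mean CPM, Hbb-bt 8 and Hba-a2 10. Per kilobase of transcript, the mean level was 55963 CPM for Hbb-bs, 17258 for Hba-a1, 9738 for Hba-a2 and 9012 for Hbb-bt. Per length, Hbb-bt, the lower beta gene, and Hba-a2, the lower alpha gene, stood close together, the beta gene at 0.925 of the alpha gene. The members of each pair share sequence. Of the 151-base windows of the Hbb-bt transcript, 50.6% also occur in Hbb-bs, and 58.6% of those of Hbb-bs occur in Hbb-bt. Of the windows of Hba-a2, 65.6% occur in Hba-a1, and 48.3% of those of Hba-a1 occur in Hba-a2. How the authors' counting treated reads that fit both genes is not given in the sources used here, so the split within each pair is uncertain. If such reads were dropped, the sum of a pair would be too low as well.

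The 4 genes together took 3.86% to 8.02% of all counts in a library. In KO marrow the share was 6.17% and 5.68% with BMX-001 and 5-FU, 5.38% and 4.96% with 5-FU alone, 8.02% and 7.20% with BMX-001 alone and 5.99% and 6.87% with PBS. In WT marrow it was 5.68% and 5.28% with BMX-001 and 5-FU, 3.86% and 4.04% with 5-FU alone, 6.62% and 6.96% with BMX-001 alone and 4.86% and 6.22% with PBS. The lowest shares in each genotype were those of 5-FU alone. The widest exact 95% binomial interval on these shares was 0.0204 percentage points, which covers counting error only. In KO the share averaged 5.55 ± 0.507% with 5-FU and 7.02 ± 0.840% without it (SD, n = 4 libraries each), and the ranges overlapped, since the highest share with 5-FU (6.17%) lay above the lowest with PBS (5.99%). In WT it averaged 4.72 ± 0.900% with 5-FU and 6.17 ± 0.921% without it (SD, n = 4 each), and the ranges overlapped. These are bulk samples, in which fewer cells of a type and less RNA per cell cannot be told apart.

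**Figure D1:**
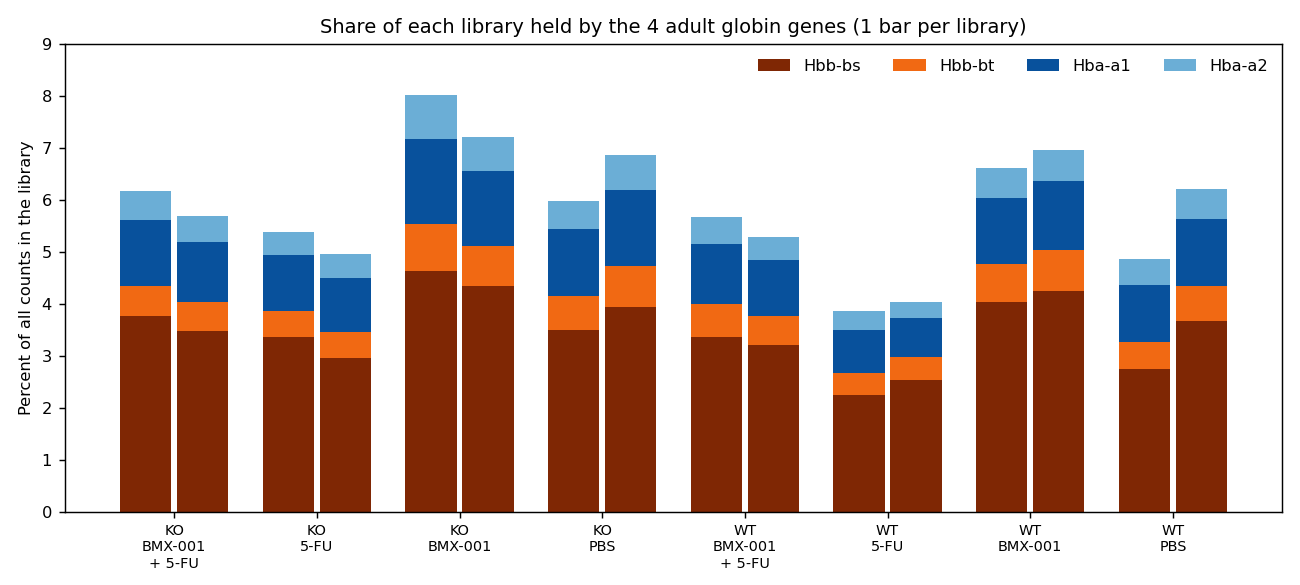
Share of all counts taken by the 4 adult globin genes in each library, in percent, stacked by gene, with KO libraries left of WT libraries and groups named under the bars. The total runs from 3.86% in a WT library given 5-FU to 8.02% in KO BMX-001 replicate 1, and Hbb-bs is the largest layer in every bar.

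In KO marrow given 5-FU the minor beta gene Hbb-bt and the minor alpha gene Hba-a2 fell, and on TMM-scaled levels (CPM of the library size after edgeR's scaling) each of the 4 genes was lower in every library given 5-FU than in any library not given it. As a percent of raw total counts this held for Hba-a1 and Hbb-bt alone. For this comparison the 4 KO libraries given 5-FU, with or without BMX-001, were set against the 4 KO libraries not given it. Hbb-bt stood at 5539 and 5192 CPM with BMX-001 and 5-FU and 4954 and 4727 CPM with 5-FU alone, against 8268 and 8147 CPM with BMX-001 alone and 7288 and 8913 CPM with PBS. The highest library with 5-FU lay well under the lowest without it. Hbb-bt fell by 0.68 ± 0.11 on the log2 scale (SE), to 0.625 of its level without 5-FU (edgeR adjusted p = 0.00773). Hba-a2 stood at 5321 and 4666 CPM with BMX-001 and 5-FU and 4408 and 4363 CPM with 5-FU alone, against 7711 and 6703 CPM with BMX-001 alone and 5944 and 7543 CPM with PBS. The log2 difference of -0.58 ± 0.12 passed the threshold (adjusted p = 0.029), again without overlap.

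The major gene of each pair was also lower in all 4 KO libraries given 5-FU, but missed the threshold. Hba-a1, the major alpha gene, stood at 12190 and 10755 CPM with BMX-001 and 5-FU and 10796 and 9799 CPM with 5-FU alone, against 14933 and 14987 CPM with BMX-001 alone and 14224 and 15995 CPM with PBS. Its log2 difference was -0.47 ± 0.11 (adjusted p = 0.0519). Hbb-bs, the major beta gene, stood at 35921 and 32623 CPM with BMX-001 and 5-FU and 33321 and 27740 CPM with 5-FU alone, against 42307 and 45103 CPM with BMX-001 alone and 38383 and 43367 CPM with PBS. Its log2 difference was -0.39 ± 0.13 (adjusted p = 0.18).

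Thus 2 of the 4 genes were called lower in KO marrow given 5-FU, where 1.74% of the 19152 genes tested were called lower and 1.9% in either direction. For 4 of 4 genes the groups did not overlap on TMM-scaled levels, which held for 4.43% of genes tested in the lower direction. As a percent of raw total counts, a scale chosen after seeing the data, 2 of 4 did not overlap, against 1.84% of genes. On that scale Hba-a2 reached 0.557% with 5-FU, against a low of 0.541% without it, and Hbb-bs reached 3.76% with 5-FU, against a low of 3.49% without it. The median log2 difference of the 4 genes was -0.52, against 0.01 over all genes tested. The Hbb-bt call was lost without KO BMX-001 with 5-FU replicate 2 (adjusted p = 0.0587, range over single libraries left out 0.00013 to 0.0587). The Hba-a2 call was lost when any of 9 libraries was left out (highest adjusted p = 0.166, without that same library, and lowest over all omissions 0.000497), and neither call held when the fit used the 8 KO libraries alone (0.081 for Hbb-bt and 0.204 for Hba-a2). With DESeq2, 4 of 4 genes were called lower, among 912 genes called over the whole table.

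**Figure D2:**
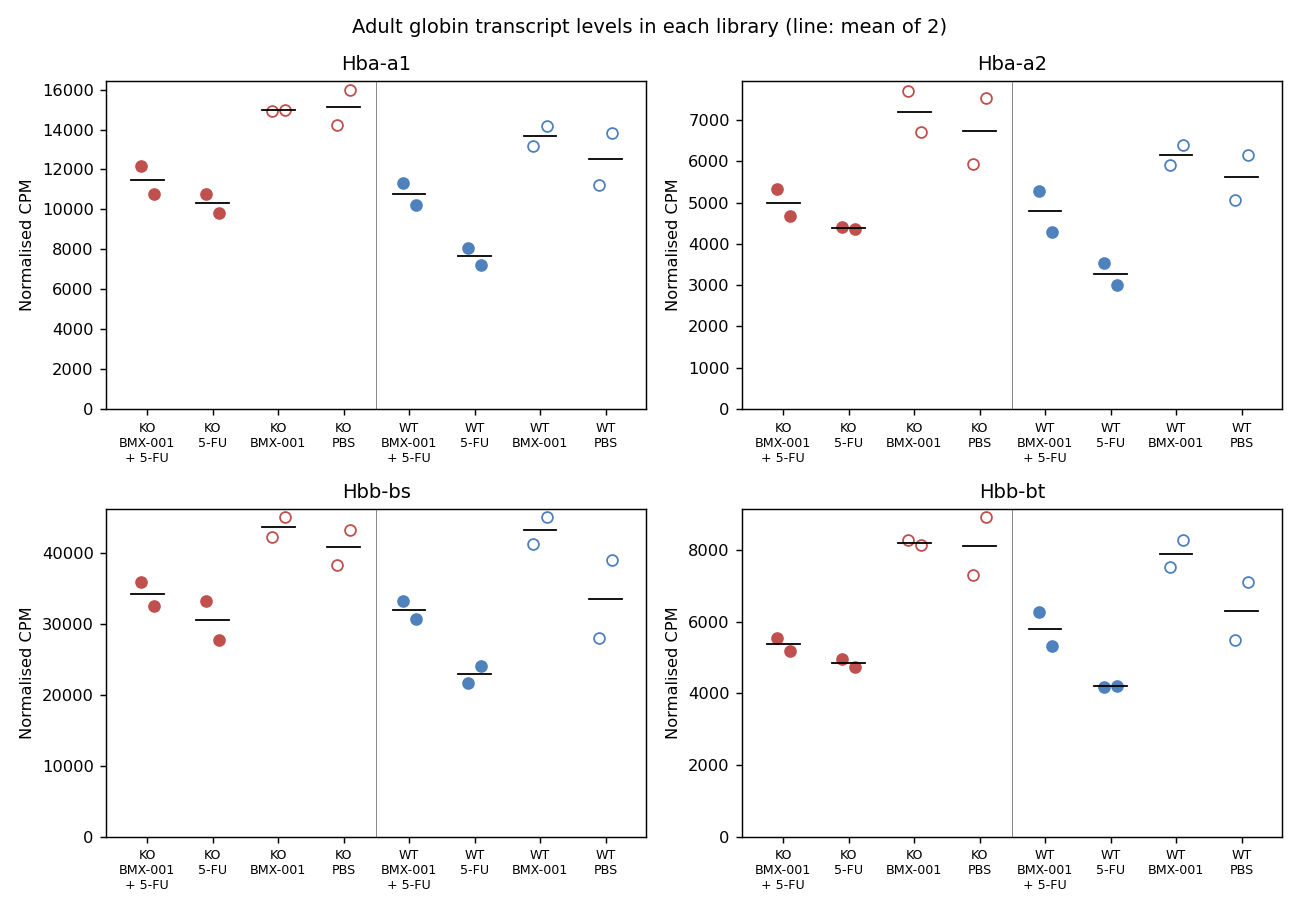
Normalised CPM of each adult globin gene in each library, 1 panel a gene, KO groups left and WT groups right, with filled points for libraries given 5-FU and open points for those not given it. In KO every filled point lies below every open one in all 4 panels on this TMM-scaled level, while in WT the ranges overlap.

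In WT marrow the differences with 5-FU were of like size, but no globin gene passed the threshold. The 4 WT libraries given 5-FU were set against the 4 not given it. Hbb-bt stood at 6260 and 5319 CPM with BMX-001 and 5-FU and 4176 and 4217 CPM with 5-FU alone, against 7523 and 8271 CPM with BMX-001 alone and 5474 and 7100 CPM with PBS (log2 difference -0.52 ± 0.11, adjusted p = 0.142). Hba-a2 stood at 5289 and 4292 CPM with BMX-001 and 5-FU and 3533 and 3007 CPM with 5-FU alone, against 5918 and 6400 CPM with BMX-001 alone and 5054 and 6163 CPM with PBS (-0.57 ± 0.12, adjusted p = 0.136). For both genes a library given BMX-001 with 5-FU lay above the lowest PBS library, so that the ranges overlapped.

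The alpha gene Hba-a1 stood at 11316 and 10244 CPM in WT with BMX-001 and 5-FU and 8076 and 7239 CPM with 5-FU alone, against 13202 and 14197 CPM with BMX-001 alone and 11246 and 13815 CPM with PBS (-0.53 ± 0.11, adjusted p = 0.13). Hbb-bs stood at 33279 and 30776 CPM in WT with BMX-001 and 5-FU and 21706 and 24131 CPM with 5-FU alone, against 41392 and 45137 CPM with BMX-001 alone and 28043 and 39084 CPM with PBS (-0.49 ± 0.13, adjusted p = 0.226). The ranges overlapped for these as well, so that 0 of 4 genes were separated, against 4.49% of all genes in the lower direction. edgeR called 0 of the 4 genes, with 0.0574% of all genes called and 1828 genes at an unadjusted p under 0.05, among them all 4 globin genes. DESeq2 called 4 of 4 lower, as did the edgeR fit to the 8 WT libraries alone and the fit without KO BMX-001 replicate 1 or without KO BMX-001 replicate 2. Over the whole table these called 225, 425, 382 and 375 genes, in that order. Without KO BMX-001 replicate 1 the adjusted p-values in WT were 0.00799 for Hba-a1, 0.00943 for Hba-a2, 0.029 for Hbb-bs and 0.0122 for Hbb-bt. Over all single libraries left out, the adjusted p of Hbb-bt in WT ran from 0.0116 to 0.716.

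Whether the response to 5-FU differed between genotypes was tested by an interaction term. The log2 difference in response, KO minus WT, was -0.16 ± 0.16 for Hbb-bt (adjusted p = 0.759), 0.06 ± 0.16 for Hba-a1 (0.907), -0.00 ± 0.17 for Hba-a2 (0.994) and 0.11 ± 0.19 for Hbb-bs (0.865). No globin gene was called, nor was any other gene (0% of those tested, with 1300 genes at an unadjusted p under 0.05 and none of the 4 globin genes among them, and 27 genes but no globin gene called by DESeq2). The count over all genes was 3645 without KO BMX-001 replicate 2, 0 without replicate 1 of that group and 202 with no filter, with no globin gene called when any single library was left out. A call in KO beside none in WT is therefore not a shown difference between genotypes.

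Set against PBS alone, 5-FU without BMX-001 gave lower values of all 4 genes in both genotypes, with none called by edgeR. In KO the log2 differences were -0.74 ± 0.16 for Hbb-bt (adjusted p = 0.0776), -0.62 ± 0.17 for Hba-a2 (0.195), -0.55 ± 0.16 for Hba-a1 (0.2) and -0.42 ± 0.19 for Hbb-bs (0.512). In WT they were -0.58 ± 0.16 for Hbb-bt (0.144), -0.78 ± 0.17 for Hba-a2 (0.095), -0.71 ± 0.16 for Hba-a1 (0.0889) and -0.55 ± 0.19 for Hbb-bs (0.21). Both libraries given 5-FU lay below both PBS libraries for 4 of 4 genes in each genotype, on TMM-scaled levels and on raw totals. On TMM-scaled levels this held for 21.4% of all genes in KO and 27.5% in WT. On raw totals it held for 6.79% in KO and 16.1% in WT. Called genes made up 0.454% of those tested in KO (1805 at an unadjusted p under 0.05) and 0.00522% in WT (2766). DESeq2 called 3 globin genes lower in KO, among 372 genes called there, and 4 in WT, among 473. It put Hbb-bs in KO at an adjusted p of 0.187. Without KO BMX-001 replicate 1 edgeR also called 3 globin genes in KO, among 556 genes, and 4 in WT, among 1353. Without replicate 2 of that group it called as many globin genes, among 554 and 1338 genes. Without WT PBS replicate 1 it called Hbb-bt in KO (adjusted p = 0.0467). Mitochondrial genes took 0.807% and 0.965% of counts in KO with 5-FU alone, against 0.668% and 0.650% with PBS. In WT they took 1.06% and 1.03% with 5-FU alone, against 0.554% and 0.838% with PBS. These shares were higher with 5-FU alone in both genotypes without overlap, while all libraries given 5-FU overlapped those not given it, and their part in the globin values was not tested.

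For BMX-001 with 5-FU against PBS, edgeR called no globin gene in either genotype. Against PBS in KO the log2 differences were -0.59 ± 0.16 for Hbb-bt (adjusted p = 0.144), -0.43 ± 0.17 for Hba-a2 (0.326), -0.40 ± 0.16 for Hba-a1 (0.319) and -0.25 ± 0.19 for Hbb-bs (0.618). On TMM-scaled levels the ranges did not overlap for 4 of 4 genes, which held for 26.1% of genes. On raw totals 2 of 4 did not overlap, against 7.17% of genes, since Hba-a2 reached 0.557% with BMX-001 and 5-FU, against a low of 0.541% with PBS, and Hbb-bs 3.76%, against a low of 3.49%. edgeR called none of the 4 in KO (0.606% of genes called, 2411 at an unadjusted p under 0.05), against 2 by DESeq2, among 494 genes it called. Without KO BMX-001 replicate 1, Hbb-bt was called lower (adjusted p = 0.0154), as it was without replicate 2 of that group (0.0146). Against PBS in WT the differences were -0.12 ± 0.16 for Hbb-bt, -0.23 ± 0.17 for Hba-a2, -0.22 ± 0.16 for Hba-a1 and -0.07 ± 0.19 for Hbb-bs, with adjusted p of 0.869 or more and overlapping ranges for all 4. No gene was called there by edgeR (0%, with 1259 at an unadjusted p under 0.05), and DESeq2 called no globin gene. Whether this difference from PBS differed between genotypes was not tested. The comparisons with PBS share the PBS libraries of a genotype.

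The direct comparison of BMX-001 with 5-FU against 5-FU alone asks whether BMX-001 altered the state of treated marrow. In WT the levels were higher with BMX-001 in both libraries for 4 of 4 genes, as the values above show. The log2 differences were 0.49 ± 0.16 for Hba-a1, 0.55 ± 0.17 for Hba-a2, 0.48 ± 0.19 for Hbb-bs and 0.46 ± 0.16 for Hbb-bt. None passed the test, at an adjusted p of 0.998 each, and unadjusted p ran from 0.00752 for Hba-a2 to 0.0236 for Hbb-bs. In this comparison 0% of genes were called, 753 genes had an unadjusted p under 0.05, and 22.3% of genes had non-overlapping higher values. In KO the same comparison gave 0.16 ± 0.16 for Hba-a1, 0.19 ± 0.17 for Hba-a2, 0.17 ± 0.19 for Hbb-bs and 0.15 ± 0.16 for Hbb-bt, with 0% of genes called (499 at an unadjusted p under 0.05). There the ranges overlapped for Hba-a1 and Hbb-bs and not for Hba-a2 and Hbb-bt, in the direction in which 18.5% of genes did not overlap. On raw totals none of the 4 overlapped in KO, as for 20.7% of genes in that direction. DESeq2 called no globin gene in either genotype. Whether the effect of adding BMX-001 differed between genotypes was not tested.

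BMX-001 alone gave no called globin gene. Against PBS in KO the log2 differences were -0.01 ± 0.16 for Hba-a1, 0.10 ± 0.17 for Hba-a2, 0.10 ± 0.19 for Hbb-bs and 0.02 ± 0.16 for Hbb-bt, and the ranges overlapped for all 4. On raw totals Hbb-bs alone did not overlap (4.34% and 4.63% with BMX-001, against 3.49% and 3.93% with PBS), as for 36.5% of genes in that direction. In WT the log2 differences were 0.13 ± 0.16 for Hba-a1, 0.14 ± 0.17 for Hba-a2, 0.37 ± 0.19 for Hbb-bs and 0.33 ± 0.16 for Hbb-bt, with adjusted p of 0.977 or more. Both beta genes were higher in both WT BMX-001 libraries than in both PBS libraries, as were 19.9% of genes. edgeR called 0.00522% of genes in KO (5859 at an unadjusted p under 0.05) and 0% in WT (977), and DESeq2 called no globin gene in either. Leaving out KO BMX-001 replicate 2 moved the count over all genes in KO to 9015, against 1 with every library, and leaving out replicate 1 moved it to 0.

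edgeR called no globin gene between KO and WT marrow, although the mean of every gene was higher in KO. Over the 4 treatments the mean of Hba-a1 was 12960 ± 2359 CPM for KO libraries and 11167 ± 2569 CPM for WT libraries, with n = 8 libraries each and ± as SD, a log2 difference of 0.23 ± 0.08 SE (adjusted p = 0.261). Hba-a2 averaged 5833 ± 1365 CPM in KO, against 4957 ± 1245 CPM in WT (0.24 ± 0.09, adjusted p = 0.279). Hbb-bs averaged 37346 ± 6035 CPM in KO, against 32943 ± 8371 CPM in WT (0.20 ± 0.09, adjusted p = 0.394). Hbb-bt averaged 6628 ± 1704 CPM in KO, against 6042 ± 1511 CPM in WT (0.13 ± 0.08, adjusted p = 0.509). The ranges overlapped for all 4 genes, and 0.178% of all genes were called, which is 34 genes and was 14 to 4467 with 1 library left out, the most without KO BMX-001 replicate 2. An unadjusted p under 0.05 was reached by 2440 genes, Hba-a1 and Hba-a2 among them. DESeq2 called Hba-a1 alone of the 4 (adjusted p = 0.0281), among 349 genes it called. Without KO BMX-001 replicate 2, edgeR called Hba-a1 (0.0254) and Hba-a2 (0.0183), and with any other library left out it called none. Within PBS the log2 differences were 0.27 ± 0.16 for Hba-a1, 0.27 ± 0.17 for Hba-a2, 0.28 ± 0.19 for Hbb-bs and 0.37 ± 0.16 for Hbb-bt (adjusted p = 1 each, with 0.0261% of genes called and 850 at an unadjusted p under 0.05). The PBS ranges did not overlap for Hba-a1 and Hbb-bt, as for 17.6% of genes in that direction, but on raw totals all 4 genes overlapped. DESeq2 called no globin gene there.

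The order of the 8 groups by mean level was much alike across the genes. WT given 5-FU alone was lowest for all 4 and KO given 5-FU alone second lowest. KO PBS was highest for Hba-a1, and KO BMX-001 was highest for the others. The highest group mean over the lowest was 1.97 for Hba-a1, 2.20 for Hba-a2, 1.91 for Hbb-bs and 1.96 for Hbb-bt. Most neighbours in the order could not be told apart, since the ranges of 5 of 7 neighbouring pairs overlapped for Hba-a1 and Hbb-bs, 6 of 7 for Hba-a2 and 4 of 7 for Hbb-bt. WT given 5-FU alone did not overlap its neighbour, KO given 5-FU alone, for any of the 4 genes. That order was set by these same values, and the share of all genes so separated between these groups was not computed. Between the PBS groups, 17.6% of genes were higher in KO than in WT without overlap on TMM-scaled levels. The separation is therefore given as a description.

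The balance of alpha to beta transcripts was not separable by 5-FU or genotype at this number of libraries. The ratio of summed alpha to summed beta counts ran from 0.361 to 0.486 over the 16 libraries. In KO it was 0.422 and 0.408 with BMX-001 and 5-FU, 0.397 and 0.436 with 5-FU alone, 0.448 and 0.407 with BMX-001 alone and 0.442 and 0.450 with PBS. In WT it was 0.420 and 0.403 with BMX-001 and 5-FU, 0.448 and 0.361 with 5-FU alone, 0.391 and 0.386 with BMX-001 alone and 0.486 and 0.433 with PBS. The spread between replicates of WT given 5-FU covered most of the whole range. The ratio averaged 0.416 ± 0.017 in KO with 5-FU and 0.437 ± 0.020 without it (SD, n = 4 each), a difference of -0.0208 (exact two-sided permutation p = 0.2). In WT it averaged 0.408 ± 0.036 with 5-FU and 0.424 ± 0.047 without it, a difference of -0.0157 (exact permutation p = 0.629). Over all treatments it averaged 0.426 ± 0.020 in KO and 0.416 ± 0.040 in WT (n = 8 each, exact permutation p = 0.526). These are 3 of 9 tests on ratios, and adjusted over the 9 the p-values were 0.566, 0.707 and 0.707.

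**Figure D3:**
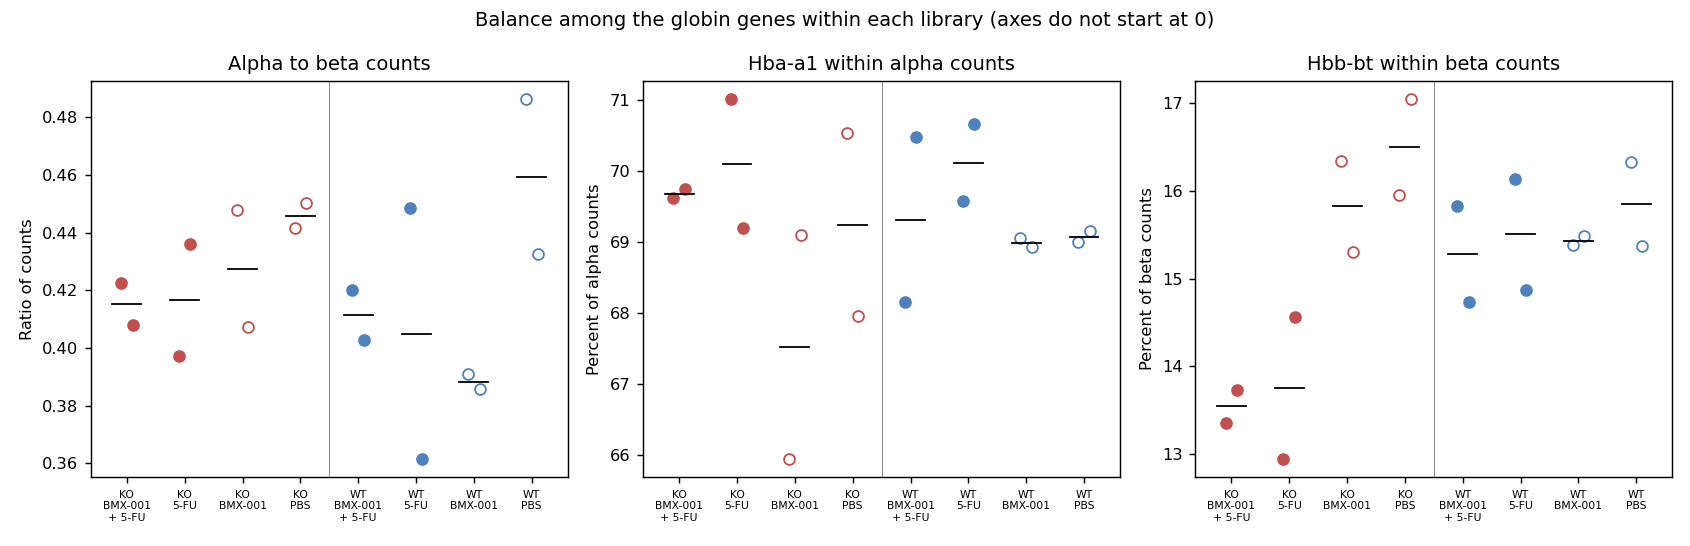
Ratio of alpha to beta counts, Hba-a1 as a percent of alpha counts and Hbb-bt as a percent of beta counts in each library, KO groups left and WT groups right, filled where 5-FU was given. In KO the Hbb-bt share is 12.9% to 14.6% with 5-FU and 15.3% to 17.0% without it, with no overlap, and in the other panels the filled and open points overlap.

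Within the beta pair, Hbb-bt took a smaller part of the counts in KO marrow given 5-FU. The share of Hbb-bt in beta counts in KO was 13.4% and 13.7% with BMX-001 and 5-FU and 12.9% and 14.6% with 5-FU alone, against 16.3% and 15.3% with BMX-001 alone and 15.96% and 17.0% with PBS. In WT it was 15.8% and 14.7% with BMX-001 and 5-FU and 16.1% and 14.9% with 5-FU alone, against 15.4% and 15.5% with BMX-001 alone and 16.3% and 15.4% with PBS. All 4 KO libraries given 5-FU lay below each of the other 12 libraries of the study. In KO the share averaged 13.6 ± 0.687% with 5-FU and 16.2 ± 0.731% without it (SD, n = 4 each), a difference of -2.51 percentage points. The exact two-sided permutation p was 0.0286, the smallest that 4 against 4 libraries allow, and 0.257 adjusted over the 9 tests. The difference does not pass the correction, but a p at that floor, as the lone lowest of 9, could not have passed. The correction therefore cannot decide on it, and the separation of the 4 libraries is given as a description. In WT the share averaged 15.4 ± 0.693% with 5-FU and 15.6 ± 0.462% without it (exact permutation p = 0.6). Over all treatments it averaged 14.9 ± 1.496% in KO and 15.5 ± 0.562% in WT (exact permutation p = 0.295). The difference between the genotypes in this response was not itself tested. The shares within each pair were tested after their values were seen, and they rest on the split of reads between near-identical genes.

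Within the alpha pair, Hba-a1 took 65.9% to 71.0% of alpha counts over the libraries, and KO BMX-001 replicate 1 was the lowest. In KO the share averaged 69.9 ± 0.782% with 5-FU and 68.4 ± 1.93% without it (exact permutation p = 0.2), and in WT 69.7 ± 1.14% with 5-FU and 69.0 ± 0.0941% without it (exact permutation p = 0.314). Over all treatments it averaged 69.1 ± 1.59% in KO and 69.4 ± 0.835% in WT (exact permutation p = 0.738).

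Other globin genes were far lower. Hbq1b and Hbq1a, the theta globins of the alpha locus, ran from 20.6 to 43.6 CPM and from 3.05 to 7.29 CPM. The embryonic genes Hba-x, Hbb-y and Hbb-bh1 stood at 0.107 to 0.368, 0.158 to 0.401 and 0.0578 to 0.518 CPM, and Hbb-bh2 had 0 to 4 counts a library and was not tested. In KO both theta genes fell with 5-FU. Hbq1b ran from 20.6 to 25.02 CPM in the 4 libraries given 5-FU and from 33.0 to 43.6 CPM in the 4 without it (log2 difference -0.73 ± 0.11, adjusted p = 0.00332). Hbq1a ran from 3.05 to 4.26 CPM with 5-FU and from 4.96 to 7.29 CPM without it (-0.70 ± 0.15, adjusted p = 0.0268). In WT the Hbq1b difference was -0.45 ± 0.11 (adjusted p = 0.183) and that of Hbq1a -0.11 ± 0.15 (0.873), and edgeR called 0 of the 5 tested genes of this list (2 at an unadjusted p under 0.05, and 1 called by DESeq2).

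Genes that surround globin production were read from lists of known function. Of 11 heme synthesis genes tested in KO, 4 fell with 5-FU and 0 rose, with a median log2 difference of -0.35. Alas2, the rate-limiting enzyme of erythroid heme synthesis, ran from 2367 to 2879 CPM with 5-FU and from 3770 to 4171 CPM without it (-0.64 ± 0.11, adjusted p = 0.00653). Slc25a37, the mitochondrial iron importer mitoferrin, fell by 0.83 ± 0.10 (adjusted p = 0.000939), and Fech, which inserts iron into the porphyrin ring, fell by 0.63 ± 0.10 (adjusted p = 0.0038). In WT edgeR called 0 of the 11 (4 at an unadjusted p under 0.05, and 3 called by DESeq2), with a median of -0.06, and Alas2 was at -0.53 ± 0.11 (adjusted p = 0.115).

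Of 6 genes of globin quality control and heme-dependent translation, 3 fell in KO with 5-FU and 0 rose. Ube2o, a ubiquitin ligase that clears unassembled alpha globin and ribosomes in reticulocytes, ran from 705 to 830 CPM with 5-FU and from 1388 to 1851 CPM without it (-0.99 ± 0.11, adjusted p = 0.000564). Ulk1, an autophagy kinase involved in the removal of free alpha globin, fell by 0.74 ± 0.11 (adjusted p = 0.00331), and Eif2ak1, the heme-regulated kinase that restrains globin translation when heme is short, fell by 0.43 ± 0.09 (adjusted p = 0.0291). In WT 1 of the 6 was called, again Ube2o, which ran from 712 to 948 CPM with 5-FU and from 1131 to 1616 CPM without it (-0.70 ± 0.11, adjusted p = 0.0387).

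Among transcription factors that drive globin genes, edgeR called 0 of 10 in KO, with a median log2 difference of -0.03 (3 at an unadjusted p under 0.05, and 1 called by DESeq2 and without KO BMX-001 replicate 1). In WT it called 0 of 10, with a median of -0.04 (1 at an unadjusted p under 0.05, and 0 by DESeq2). Nfe2, the erythroid NF-E2 subunit, was at -0.25 ± 0.08 in KO (adjusted p = 0.126), Tal1 at -0.08 ± 0.13 (0.758) and Zfpm1, the GATA1 cofactor FOG1, at -0.08 ± 0.16 (0.821). Of 6 haemoglobin and heme scavenging genes tested, edgeR and DESeq2 called 0 in either genotype (1 at an unadjusted p under 0.05 in KO and 0 in WT). Hp, which encodes the plasma protein that binds free haemoglobin, was at 0.02 ± 0.09 in KO (0.935).

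Most late erythroid markers fell with 5-FU in KO. There 12 of 16 fell and 0 rose, with a median log2 difference of -0.62, and without KO BMX-001 replicate 1 the count was 15. Xpo7, a nuclear exporter of the maturing erythroblast, fell by 1.16 ± 0.13 (adjusted p = 0.000672), Tmcc2 by 1.04 ± 0.11 (0.000443) and Epb42, a red cell membrane protein, by 0.72 ± 0.08 (0.000717). In WT 1 of the 16 was called, Bpgm, the enzyme that makes 2,3-bisphosphoglycerate, which fell by 0.75 ± 0.12 (adjusted p = 0.0387), while all 16 had negative differences with a median of -0.30, and 7 were called lower both by DESeq2 and without KO BMX-001 replicate 1. Of 8 early erythroid markers 1 was called in KO, Cd36, which fell by 0.85 ± 0.13 (adjusted p = 0.00497), and in WT edgeR and DESeq2 called 0 (1 at an unadjusted p under 0.05). In KO, DESeq2 called 3 early markers lower, as did edgeR without KO BMX-001 replicate 1. Summed CPM of a list was read on TMM-scaled levels alone, and whether the sums overlap on raw totals was not examined. The summed CPM of the late markers ran from 13955 to 15419 in KO with 5-FU and from 18772 to 24638 without it. In WT it ran from 16010 to 18109 with 5-FU and from 18641 to 23059 without it, with no overlap in either genotype on this scale. The summed CPM of the early markers ran from 1698 to 1977 in KO with 5-FU and from 1993 to 2555 without it. In WT it overlapped, at 2175 to 2447 with 5-FU and 2038 to 2515 without it. The part of erythroid cell number in the globin values was not tested.

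Markers of other cells that marrow holds were read in the same libraries, with sums on TMM-scaled levels alone. Overlap of these sums on raw totals was not examined. In KO the summed CPM of 10 neutrophil markers ran from 25473 to 34529 with 5-FU and from 28871 to 38651 without it, and that of 10 macrophage markers from 908 to 960 with 5-FU and from 513 to 987 without it. The sums of 5 primary granule markers, 10 B cell markers and 6 megakaryocyte markers also overlapped. That of 6 monocyte markers ran from 1123 to 1323 with 5-FU and from 695 to 1875 without it, and overlapped through KO BMX-001 replicate 1 (695 CPM) alone. The other 3 KO libraries without 5-FU, at 1357 to 1875 CPM, all lay above the 4 given it. The sum of 6 T and NK cell markers did not, at 87.6 to 101 CPM with 5-FU and 68.3 to 82.4 CPM without it. In WT the monocyte sum was also lower with 5-FU, at 1222 to 1322 CPM, against 1341 to 1500 CPM without it. On this scale there was no overlap, by a narrow gap. All 6 monocyte and all 10 neutrophil markers had negative log2 differences in WT, with medians of -0.20 and -0.19. The neutrophil sum in WT overlapped, at 25371 to 30617 CPM with 5-FU and 29420 to 36203 CPM without it, as did those of B cell markers and of T and NK cell markers. edgeR called no gene of these 7 lists for 5-FU in KO or in WT. At an unadjusted p under 0.05 stood 9 of their genes in KO and 4 in WT, and DESeq2 called 4 in KO (a neutrophil and a B cell marker lower, a primary granule and a T or NK cell marker higher) and 2 B cell markers lower in WT. Without KO BMX-001 replicate 1, edgeR called 3 monocyte, 1 macrophage and 1 neutrophil marker lower and 1 primary granule marker higher in KO, and 1 monocyte and 1 macrophage marker lower in WT. In KO the low ends without 5-FU for neutrophil, monocyte, macrophage, primary granule (588 CPM) and megakaryocyte markers (79.2 CPM) were those of KO BMX-001 replicate 1. The part of these cells in the globin values was not tested in either genotype.

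Genes most like the globin genes across the 16 libraries were sought among the 5511 named genes whose log2 CPM averaged 5 or more. For summed alpha globin they included Slc25a39 (Pearson r of log2 CPM 0.969), Alas2 (0.961), Oaz1 (0.940) and Ccndbp1 (0.936). For summed beta globin they included Alas2 (0.962), Ccndbp1 (0.940), Slc25a39 (0.937) and Gabarapl2 (0.919). Slc25a39 is a mitochondrial glutathione carrier. The values are descriptive, since the libraries share groups and scaling, and without KO BMX-001 replicate 1 they ran from 0.935 to 0.974 for alpha and from 0.933 to 0.960 for beta.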

How the data were processed

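Raw counts by Ensembl gene ID were deposited by the authors, 1 column for each of 16 libraries. The submitters' processing notes name GRCm39 as the build and list featureCounts, Salmon (1.4.0), R (4.3.0), DESeq2 (1.38.3), FastQC (0.12.1) and Trim Galore (0.6.4), without roles. For the aligner, the annotation release, the strand setting and reads that match several genes, no setting was given in the sources used here. Symbols and transcript lengths came from GENCODE M21 and promoters from RefSeq, both on GRCm38, so coordinates are of that build.

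Genes were filtered with filterByExpr, which left 19152. Group means of 8 groups were fitted in edgeR 4.0.16 (R 4.3.3) with TMM scaling and the robust quasi-likelihood test, which leaves 8 residual degrees of freedom. The 13 comparisons were each adjusted by Benjamini-Hochberg over all genes tested, and a gene was called at an adjusted p under 0.05. Normalised CPM are counts per 1e+06 of the TMM-scaled library size. Percentages of counts use the raw totals. Ratios were tested with exact permutation tests (SciPy 1.17.1). The fit was also run on simulated data, with the same spread setting for all genes and libraries. The real libraries were not so alike, since KO BMX-001 replicate 1 stood apart. The simulation therefore does not show how reliable the calls are here.

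The members and gene lists were chosen with earlier results of these data known. Named genes are the members, Nfe2l2, up to 3 called genes of smallest p in each list (the 3 of highest mean CPM where none was called) and the 5 genes of highest r, of which 1 is not reported here. Alternatives were DESeq2 1.42.0, its size factors, scaling without the globin genes, no filter, no robust option, only the groups compared, a replicate block and each library left out. Overlap of groups for single genes, but not for summed lists, was also read as a percent of raw total counts, a scale added after seeing the data. For ratios they were the log2 scale, counts per kilobase and each library left out.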

Additional observations from a re-analysis of the deposited data

Results flagged for a closer look

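The share of Hbb-bt in beta globin counts was 16.3% in WT PBS replicate 1, while the other 3 WT libraries not given 5-FU lay between 15.4% and 15.5%. The gap to its nearest neighbour was 0.881 of the group's range, above Dixon's critical value of 0.829 for 4 libraries. It was the only value of this kind among 48 groups of values looked at, which share libraries. Chance gives such a value in about 1 of 20 groups, so 1 among 48 is no more than chance would give. No globin gene or ratio moved one way in every library of KO and the other way in every library of WT in the 32 pairs of effects looked at.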

How the results depend on the processing

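Of 356 member log2 differences under other settings, 317 kept their direction and side of the threshold, 33 passed it newly, 3 lost it and 3 turned sign. With 1 library left out, 767 of 832 stayed, 31 passed, 10 were lost and 24 turned sign. Globin genes called with 5-FU in WT, 0 at first, were 4 with DESeq2, 4 with no filter and 4 with only the groups compared. In KO, 2 at first, they were 4 with DESeq2, 3 with its size factors in edgeR, 3 with no filter, 1 without the robust option and 0 with only the groups compared. For 5-FU against PBS in WT, 0 became 4 with DESeq2 and 2 with no filter, and in KO 3 with DESeq2, 2 with no filter and 1 with only the groups compared. For BMX-001 with 5-FU against PBS in KO, 0 became 2 with DESeq2, 1 with no filter and 1 with only the groups compared, and for KO against WT over 4 treatments 0 became 1 with DESeq2. With 1 library left out, the counts ran from 0 to 4 for 5-FU in KO and in WT and for 5-FU against PBS in WT, 0 to 3 for 5-FU against PBS in KO, 0 to 1 for BMX-001 with 5-FU against PBS in KO and 0 to 2 for KO against WT. They stayed at 0 in the other 7 comparisons. The cause was not tested.

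Genes called over the whole table also moved. For 5-FU in KO they were 364, against 912 with DESeq2 and 139 to 6008 with 1 library left out, the highest without KO BMX-001 replicate 2 and 687 without KO BMX-001 replicate 1. In WT they were 11, against 225 with DESeq2 and 0 to 382. With only the groups compared they were 64 in KO and 425 in WT, and with no filter 1790 and 430. Without KO BMX-001 replicate 1 the 87 genes called for 5-FU against PBS in KO became 556, the 1 called in WT 1353, and the 116 called for BMX-001 with 5-FU against PBS in KO 1054.

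Small differences turned sign. With no filter, the genotype difference of Hba-a2 was 0.00665 and Hbb-bt for BMX-001 in KO -0.0111, and with only the groups compared Hba-a1 for BMX-001 in KO was 0.0206. With 1 library left out, the genotype difference ran from -0.0115 to 0.13 for Hba-a1, -0.0773 to 0.0823 for Hba-a2 and -0.0171 to 0.215 for Hbb-bs. BMX-001 with 5-FU against PBS in WT ran from -0.29 to 0.19 for Hbb-bs and -0.29 to 0.0811 for Hbb-bt. BMX-001 against PBS in WT ran from -0.0275 to 0.29 for Hba-a1 and -0.0164 to 0.29 for Hba-a2, and in KO from -0.11 to 0.0262 for Hba-a1, -0.0803 to 0.23 for Hba-a2, -0.00375 to 0.14 for Hbb-bs and -0.13 to 0.12 for Hbb-bt. The alpha to beta difference with 5-FU in WT ran from -0.0292 to 0.00511, and the KO minus WT difference in the Hba-a1 share from -0.504 to 0.219. The KO difference in the Hbb-bt share with 5-FU kept its sign, from -2.82 to -2.22 percentage points, at an exact permutation p of 0.0571 with each library left out, the smallest that 3 against 4 allow.

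Replicate numbers showed no strong shared effect. Deviations of same-numbered libraries in 28 pairs of groups correlated at -0.391 to 0.196, with a median of 0.009 and 6 over 0.1. Such values cannot show that the samples were unpaired. With a replicate block, 2 globin genes were called for 5-FU in KO and 0 in WT, and 322 and 10 genes over the whole table. The only-groups setting was not applied to the genotype difference and to KO against WT, which use all 8 groups. Counts of the gene lists with DESeq2 and without KO BMX-001 replicate 1 were chosen after seeing the data. With 2 libraries a group and no stated treatment of reads shared within a pair, small differences between the genes of a pair could not be resolved.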
